A study of Homo sapiens with 24 samples.

Results

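The genes of glycolysis and of the response to low oxygen were examined in RT112 cells, an established human bladder cancer line, on expression arrays. The members were taken by name, as 24 genes of glucose uptake, glycolysis and the fate of pyruvate and 11 other targets of the hypoxia-inducible factors. Each gene was represented by its probe set with the highest mean over all arrays. Of the 35 genes, 32 had a probe set of their own among the 19775 genes measured, 22 of the first kind and 10 of the second. SLC16A1, SLC16A3 and CA9 were not analysed here.

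Glycolysis turns glucose into pyruvate in the cytosol and yields ATP without oxygen. Lactate dehydrogenase then reduces pyruvate to lactate, while pyruvate dehydrogenase feeds it to the mitochondria. The hypoxia-inducible factors are transcription factors that are degraded when oxygen is present, and they raise the transcription of most glycolytic enzymes together with genes for blood vessel growth, mitophagy and acid balance. Many tumours, bladder cancers among them, express glycolytic genes at a high level also when oxygen is present, and growth factor receptor signalling and MYC act on many of the same genes.

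The series asked which genes respond to loss of FGFR3, a growth factor receptor that mutations or fusions activate in many bladder tumours. All cells were RT112 with a short hairpin RNA that doxycycline induces, aimed either at FGFR3 (3 lines, named 2-4, 4-1 and 6-16) or at EGFP, which human cells lack (1 control line). Each line was kept in medium with 1% serum for 48 h without doxycycline or with it at 1 µg/ml. The 24 arrays thus form 8 labelled groups of 3. The labels do not say that the arrays of a group came from separate cultures, so p-values measure the spread between these arrays, which may be technical. Nor do the labels say whether a line was 1 clone or a pool. Values are log2 expression levels, on which a difference of 1 is a 2-fold difference.

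The hairpin's target did not bear out the labels, so groups are named by their labels only and each direction by label rests on them. TACC3, the fusion partner of FGFR3 known in RT112 cells, was measured at 10.49 to 11.43 on 9 arrays and at 11.82 to 12.62 on the other 15, with the threshold of 11.6 in the gap between them. These arrays are called TACC3-low and TACC3-high below. They were set apart by a measured level, are no groups of the study, and are described by ranges and medians without a test. The dimmer of the FGFR3 probe sets set the same arrays apart, at 8.71 to 9.88 against 10.34 to 11.20. The brighter one overlapped, at 11.13 to 12.20 against 11.36 to 12.34. By label, 4 of 12 arrays with doxycycline and 5 of 12 without it were TACC3-low. The EGFP line held 3 of 6, the 2-4 line 2, the 4-1 line 3 and the 6-16 line 1.

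RNA quality and cell identity were checked on the same arrays. The excess of 3' over 5' signal on the GAPDH degradation control was 0.28 to 0.42 on the TACC3-low arrays and 0.20 to 0.29 on the TACC3-high arrays. On the ACTB control it was 0.79 to 1.17 against 0.70 to 0.97. The excess moved with the TACC3 level, and its part in the results below was not tested. The summed level of 12 urothelial and epithelial markers was 16.17 to 16.45 on TACC3-low and 16.15 to 16.37 on TACC3-high arrays, as log2 of the sum. Of these markers, KRT5 was at 10.24 to 11.87 and 11.23 to 12.49, UPK2 at 9.03 to 10.17 and 8.37 to 9.52, and UPK1B at 12.89 to 13.57 and 12.28 to 13.14. The sums were 13.47 to 13.72 and 13.11 to 13.54 for 8 fibroblast markers, 10.04 to 10.37 and 9.99 to 10.33 for 8 of 9 leukocyte markers, and 10.29 to 10.45 and 10.42 to 10.59 for 5 endothelial markers. LUM, at a mean of 13.18, made up most of the fibroblast sum, and none of the genes of these 3 other cell types separated the TACC3-low arrays from the rest. Of the 12 urothelial and epithelial markers, KRT18 lay wholly lower there and CDH1 and GATA3 wholly higher. Among all genes 3.09% lay wholly lower on the TACC3-low arrays and 2.90% wholly higher.

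The hypoxia-inducible factors bind a short core, and promoters are shown for 6 members whose medians lay lower or higher on the TACC3-low arrays. The core searched was ACGTG or GCGTG on both strands, in the 250 bases before each transcription start of the RefSeq table (GRCh38.p14). CACGTG reads as the core on both strands, so it counts as 2 matches, and it is also the E-box that MYC and USF proteins bind. The 6 promoters below run 5′ to 3′ towards the gene, with core matches in capitals.
LDHA, chr11:18394313-18394562, + strand: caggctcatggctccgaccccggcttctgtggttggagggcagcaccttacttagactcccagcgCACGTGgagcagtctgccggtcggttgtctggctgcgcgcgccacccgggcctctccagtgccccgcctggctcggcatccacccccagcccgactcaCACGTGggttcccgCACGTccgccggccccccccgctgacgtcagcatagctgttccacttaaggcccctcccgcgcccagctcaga
ENO1, chr1:8878687-8878936, - strand: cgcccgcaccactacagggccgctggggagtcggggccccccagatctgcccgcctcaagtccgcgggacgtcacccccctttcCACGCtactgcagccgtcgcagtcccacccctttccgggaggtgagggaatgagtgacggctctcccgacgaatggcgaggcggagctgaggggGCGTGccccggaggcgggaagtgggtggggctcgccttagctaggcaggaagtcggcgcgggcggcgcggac
PKM, chr15:72231191-72231440, - strand: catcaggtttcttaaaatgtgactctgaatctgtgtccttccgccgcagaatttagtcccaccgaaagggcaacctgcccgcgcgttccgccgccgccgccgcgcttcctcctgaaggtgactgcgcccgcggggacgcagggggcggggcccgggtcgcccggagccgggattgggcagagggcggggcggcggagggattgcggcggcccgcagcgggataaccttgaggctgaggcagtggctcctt
PFKFB3, chr10:6202682-6202931, + strand: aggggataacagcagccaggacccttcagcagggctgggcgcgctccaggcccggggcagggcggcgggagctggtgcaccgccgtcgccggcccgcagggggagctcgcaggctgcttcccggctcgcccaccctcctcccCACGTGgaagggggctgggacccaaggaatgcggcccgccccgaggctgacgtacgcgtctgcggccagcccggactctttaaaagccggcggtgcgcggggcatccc
ADM, chr11:10304823-10305072, + strand: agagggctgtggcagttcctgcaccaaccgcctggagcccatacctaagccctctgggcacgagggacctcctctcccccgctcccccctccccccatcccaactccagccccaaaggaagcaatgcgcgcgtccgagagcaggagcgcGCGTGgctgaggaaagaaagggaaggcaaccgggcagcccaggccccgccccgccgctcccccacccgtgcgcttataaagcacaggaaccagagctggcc
DDIT4, chr10:72273674-72273923, + strand: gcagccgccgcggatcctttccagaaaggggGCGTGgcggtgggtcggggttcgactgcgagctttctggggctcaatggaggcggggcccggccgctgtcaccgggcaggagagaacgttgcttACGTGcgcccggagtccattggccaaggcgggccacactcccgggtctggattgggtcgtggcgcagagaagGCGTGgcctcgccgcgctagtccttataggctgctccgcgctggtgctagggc
LDHA and ENO1, which were lower on TACC3-low arrays, held 5 and 2 matches in the promoters shown. LDHA held 1 before the second of its listed starts. PFKFB3, which was higher there, held 2 before the second of its listed starts and 1 before the first. ADM held 1 and DDIT4 held 3, and PKM, which was also lower, held none in this window.

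The core was found before 1 or more starts of 23 of the 28 members that the table lists (82.1%), against 12945 of 27305 genes in the table (47.4%). By promoter it was 29 of 50 (58.0%) against 15172 of 35116 (43.2%). The median GC content was 68.6% in member promoters and 58.0% in all promoters, and both cores contain CG. Among the members whose ranges did not overlap, 7 of 10 that were lower and 1 of 1 that was higher held the core. It was in 15 of 17 of the others. The core was thus present before members of every kind of pattern. SLC2A3, VEGFA, NDRG1 and BNIP3L had no entry. A match is a description of the letters, not of binding.

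The question the series poses is whether doxycycline changed these genes in the FGFR3 hairpin lines and not in the EGFP line. By label, no member passed the test. limma called 0 of the 32 members at an adjusted p under 0.05 in the EGFP, 2-4, 4-1 and 6-16 lines, where it called 0.00% of the 19775 genes each time. It also called 0 members, and 0.00% of genes, for the mean FGFR3 line change minus the EGFP line change, for differences among the 3 FGFR3 lines by an F-test, and for the difference between FGFR3 and EGFP lines when doxycycline was absent. No member met the rule of the series design, 3 calls of 1 sign in the FGFR3 lines and none in the EGFP line. An unadjusted p under 0.05 was found for 0 members with the EGFP hairpin (2.55% of all genes), 0 with hairpin 2-4 (2.46%), 0 with 4-1 (1.13%) and 2 with 6-16 (7.78%). There were 0 for the mean difference (2.16%), 2 by the F-test (3.22%) and 0 between lines without doxycycline (2.91%).

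The 2 members with an unadjusted p under 0.05 were EGLN3 and ENO2, both in the 6-16 line. EGLN3 encodes a prolyl hydroxylase that marks the hypoxia-inducible factors for degradation and is itself their target. Its log2 level in the 6-16 line was 7.38, 7.44 and 7.58 without doxycycline and 7.10, 7.12 and 7.20 with it, and these ranges did not overlap. The change was -0.33 ± 0.10 (SE, n = 3 against 3), with a limma adjusted p of 0.504. In the EGFP line it was at 6.98, 7.16 and 7.28 without and 7.23, 7.27 and 7.30 with doxycycline, and its changes were 0.12 in the EGFP, 0.03 in the 2-4 and 0.08 in the 4-1 line.

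ENO2, the enolase best known from neurons, was measured in the 6-16 line at 6.55, 6.69 and 6.71 without and 6.35, 6.42 and 6.47 with doxycycline. These ranges did not overlap either. Its change was -0.23 ± 0.09 (SE, n = 3 against 3), with a limma adjusted p of 0.602. The mean levels of EGLN3 and ENO2 over all arrays, 7.22 and 6.57, lay below the median level of 7.93 over all genes. The 6-16 line without doxycycline held no TACC3-low array and 1 of its 3 arrays with doxycycline was TACC3-low. With array weights in the model, limma called both genes, at an adjusted p of 0.00771 for EGLN3 and 0.0403 for ENO2, among 1291 genes called in all.

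By label, the median changes of both lists lay above 0 in some lines and below 0 in others. The median change of the 22 glycolysis members was 0.14 in the EGFP, -0.03 in the 2-4, 0.05 in the 4-1 and -0.09 in the 6-16 line. The median over all genes ran from -0.01 to 0.03 in these lines. Of the 22 members, 16, 6, 17 and 6 were above 0. For the 10 other hypoxia targets the median changes were 0.09, 0.05, -0.08 and 0.10, with 7, 7, 4 and 8 above 0. With 1 array left out, the glycolysis median in the EGFP line ran from 0.07 (without replicate 3 without doxycycline) to 0.22 (without replicate 3 with it). In the 6-16 line it ran from -0.16 (without replicate 2 without doxycycline) to -0.06 (without replicate 2 with it). It ran from -0.10 to 0.08 in the 2-4 line (0.08 without replicate 2 with doxycycline) and from -0.04 to 0.12 in the 4-1 line (-0.04 without replicate 2 without doxycycline). The hypoxia target median in the 4-1 line ran from -0.19 to 0.04 (0.04 without replicate 2 with doxycycline). These 3 signs, in the 2-4 and 4-1 lines, rested on single arrays. The mean FGFR3 line change minus the EGFP line change had a median of -0.15 for glycolysis and -0.05 for the hypoxia targets, and the latter was 0.11 without replicate 2 of the EGFP line without doxycycline. Between the FGFR3 and EGFP lines without doxycycline, 20 of 22 glycolysis members lay above 0, with a median of 0.14 against 0.00 for all genes. That median ran from 0.12 to 0.21 with 1 array left out (0.21 without replicate 2 of the EGFP line). The EGFP line without doxycycline held 2 TACC3-low arrays of 3 and the FGFR3 lines 1, 2 and 0 of 3, and limma called no member. For the other hypoxia targets 7 of 10 lay above 0, with a median of 0.01.

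The spread within labelled groups was as large as the spread over all arrays. The median SD of the glycolysis members was 0.22 within groups and 0.20 over the 24 arrays. For the other hypoxia targets it was 0.20 and 0.18. Arrays of one label thus differed from each other as much as arrays of different labels.

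**Figure D1:**
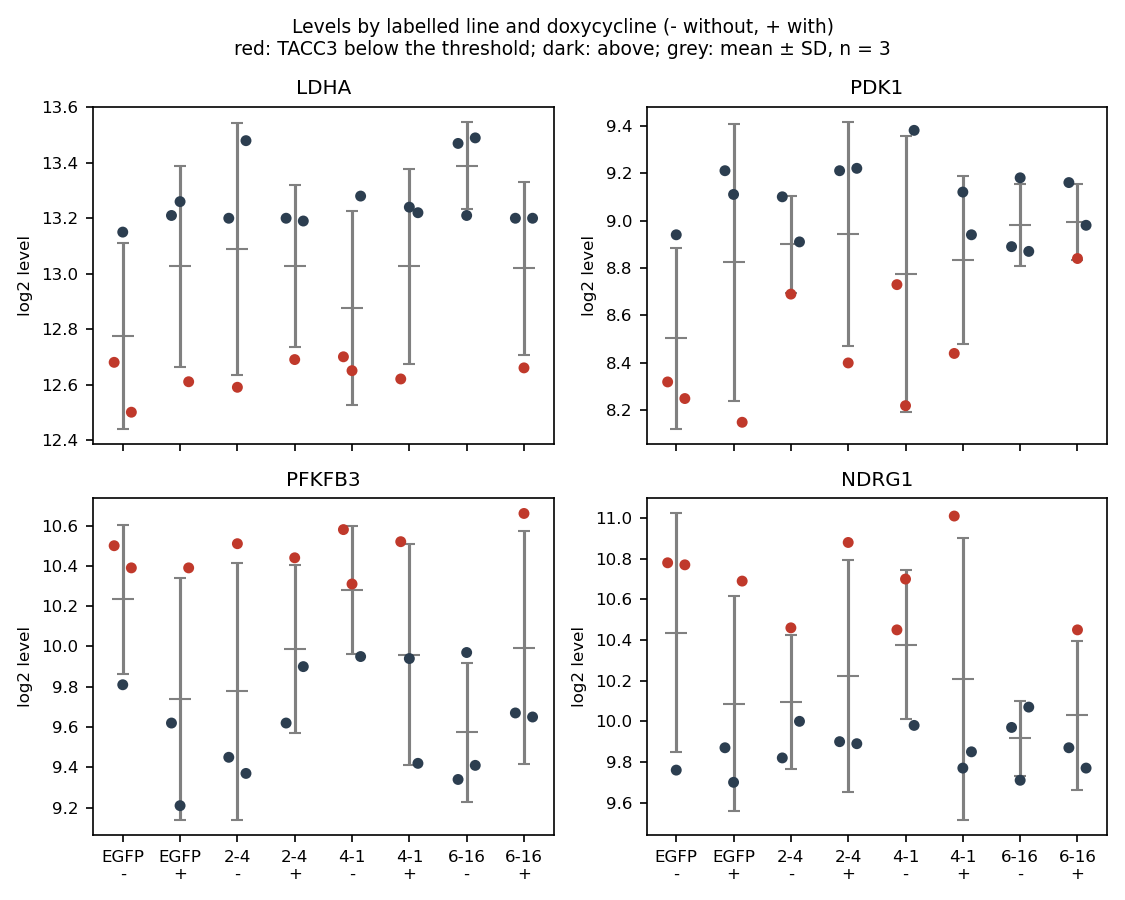
Log2 levels of LDHA, PDK1, PFKFB3 and NDRG1 (y axes) by labelled line without (-) and with (+) doxycycline; points are arrays, red where TACC3 was below 11.6, and grey bars are mean ± SD of 3 arrays. Red and dark points separate in each group that holds both, for all 4 genes, while the bars without and with doxycycline overlap in every line.

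LDHA, the lactate dehydrogenase subunit that is abundant in tumours, shows how the labelled groups were made up. Without doxycycline its level was 12.50, 12.68 and 13.15 in the EGFP line, 12.59, 13.20 and 13.48 in 2-4, 12.65, 12.70 and 13.28 in 4-1, and 13.21, 13.47 and 13.49 in 6-16. With doxycycline it was 12.61, 13.21 and 13.26, then 12.69, 13.19 and 13.20, then 12.62, 13.22 and 13.24, and then 12.66, 13.20 and 13.20 in the same order of lines. Every group but the 6-16 line without doxycycline thus held both low and high arrays, and only in that line did the ranges without and with doxycycline part, by 0.01. The changes were 0.25, -0.07, 0.15 and -0.37 in the EGFP, 2-4, 4-1 and 6-16 lines, with an SE of 0.25 and limma adjusted p of 0.975, 0.999, 1.00 and 0.751.

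PFKFB3 makes fructose 2,6-bisphosphate, the strongest activator of phosphofructokinase, and had the widest range of the glycolysis members. Without doxycycline its level was 9.81, 10.39 and 10.50 in the EGFP line, 9.37, 9.45 and 10.51 in 2-4, 9.95, 10.31 and 10.58 in 4-1, and 9.34, 9.41 and 9.97 in 6-16. With doxycycline it was 9.21, 9.62 and 10.39, then 9.62, 9.90 and 10.44, then 9.42, 9.94 and 10.52, and then 9.65, 9.67 and 10.66. Each line's ranges without and with doxycycline overlapped. PFKFB3 thus moved by -0.49, 0.21, -0.32 and 0.42 (SE 0.37), at limma adjusted p of 0.975, 0.999, 1.00 and 0.800.

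The other 6 glycolysis members with the widest ranges had line changes that did not pass limma. Group means are given in the order EGFP, 2-4, 4-1 and 6-16, first without and then with doxycycline, each over 3 arrays. GPI, which turns glucose 6-phosphate into fructose 6-phosphate, had means of 11.37, 11.75, 11.54 and 11.92 without and 11.59, 11.54, 11.61 and 11.68 with doxycycline (SD 0.08 to 0.45). PFKP, the platelet phosphofructokinase, had 9.92, 10.22, 10.09 and 10.25 without and 10.20, 10.31, 10.15 and 10.26 with it (SD 0.07 to 0.36). The widest step in PFKP, 0.29 ± 0.19 (SE) in the EGFP line, had a limma adjusted p of 0.975.

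PFKM, the muscle phosphofructokinase, had group means of 9.68, 9.69, 9.79 and 9.61 without and 9.91, 9.99, 9.67 and 9.71 with doxycycline (SD 0.06 to 0.63). ALDOC, the brain aldolase, had 8.33, 8.71, 8.41 and 8.91 without and 8.74, 8.67, 8.53 and 8.53 with it (SD 0.14 to 0.62). PKM, pyruvate kinase, had 12.92, 13.24, 13.00 and 13.56 without and 13.10, 13.12, 13.11 and 13.20 with it (SD 0.09 to 0.49). For PFKM and ALDOC the largest SD within a group exceeded the distance between any 2 of their group means. PDK1, the kinase that switches pyruvate dehydrogenase off, had 8.50, 8.90, 8.78 and 8.98 without and 8.82, 8.94, 8.83 and 8.99 with doxycycline (SD 0.16 to 0.59).

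The other hypoxia targets gave no call either. ADM encodes adrenomedullin, a peptide that widens vessels, and had the widest range of all members. Its group means were 9.12, 8.62, 9.25 and 8.40 without and 8.98, 9.28, 8.82 and 8.92 with doxycycline (SD 0.05 to 1.03). It differed by -0.13, 0.66, -0.43 and 0.52 with doxycycline (SE 0.41), at limma adjusted p of 0.981, 0.999, 1.00 and 0.783. In the 2-4 line its values without doxycycline, 8.59, 8.59 and 8.67, all lay below those with it, 8.80, 9.35 and 9.68. In the 6-16 line 8.17, 8.45 and 8.58 lay below 8.76, 8.83 and 9.17 in the same way, and in the EGFP and 4-1 lines its ranges overlapped. Ranges of other members parted in the 6-16 line too, with PKM, GPI, GAPDH and PGK1 lower with doxycycline and PFKL higher. The share of all genes with such a parting by label is not given here.

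NDRG1, a stress-induced gene strongly raised by hypoxia, had group means of 10.44, 10.09, 10.37 and 9.91 without and 10.09, 10.22, 10.21 and 10.03 with doxycycline (SD 0.19 to 0.69). BNIP3, a mitophagy receptor on mitochondria, had 8.47, 8.47, 8.67 and 8.30 without and 8.84, 8.88, 8.60 and 8.68 with it (SD 0.06 to 0.58). VEGFA, the main growth factor of blood vessels, had 10.13, 10.39, 10.13 and 10.40 without and 10.26, 10.40, 10.41 and 10.40 with it (SD 0.18 to 0.47). The line changes of these 3 genes all had a limma adjusted p above 0.78. P4HA1, a collagen prolyl hydroxylase, had 9.76, 9.78, 9.89 and 9.76 without and 9.81, 9.87, 9.76 and 9.76 with doxycycline (SD 0.07 to 0.37).

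**Figure D2:**
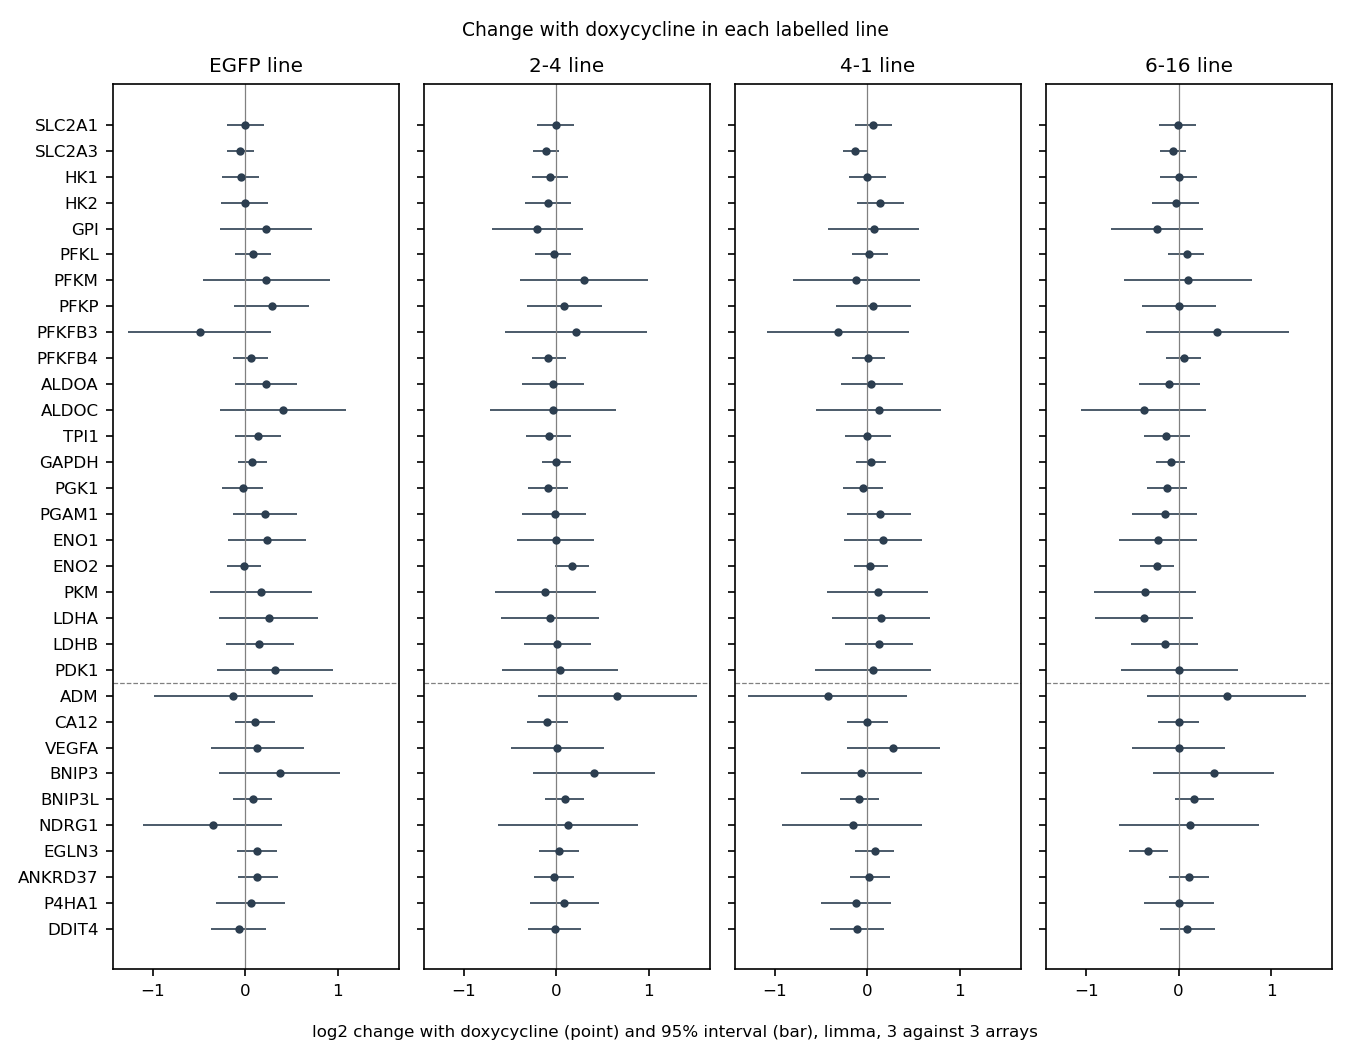
Log2 change with doxycycline (x axis) of each of the 32 members (y axis, other hypoxia targets under the dashed line) in the 4 labelled lines; points are limma estimates from 3 against 3 arrays and bars are 95% intervals. The intervals include 0 for all members but EGLN3 and ENO2 in the 6-16 line.

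On the TACC3-low arrays 10 of the 32 members had ranges wholly below those on the TACC3-high arrays, where 3.09% of all genes did, and all 10 were on the glycolysis list. They were GPI, ALDOA, TPI1, GAPDH, PGAM1, ENO1, PKM, LDHA, LDHB and PDK1. Another 2 members, PFKFB3 and NDRG1, had ranges wholly above, where 2.90% of all genes did. The median difference between the medians was -0.25 for the 22 glycolysis members, 0.01 for the 10 other hypoxia targets and -0.01 for all genes. The median deviation of the glycolysis members from their own means ran from -0.20 to -0.05 on TACC3-low arrays and from 0.04 to 0.18 on TACC3-high arrays. For the other hypoxia targets it ran from -0.16 to 0.19 and from -0.27 to 0.13, which overlapped. The 3' excess given above also lay higher on the TACC3-low arrays, and its part in this was not tested.

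**Figure D3:**
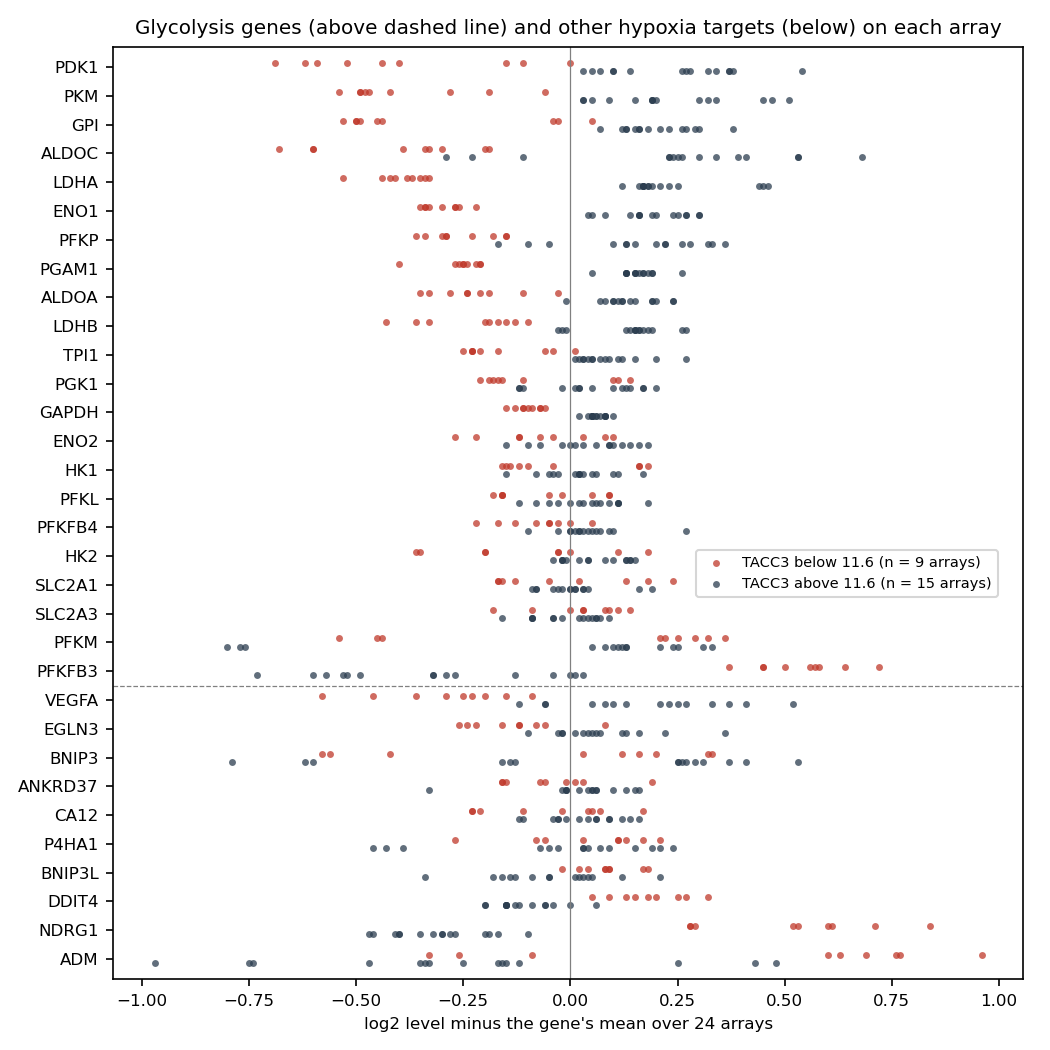
Log2 level minus the gene's mean over 24 arrays (x axis) for the 32 members (y axis, ordered by the difference of medians within glycolysis genes and within other hypoxia targets); each point is 1 array, red for the 9 with TACC3 below 11.6 and dark for the 15 above. The points separate in opposite directions for PKM and LDHA against PFKFB3 and NDRG1, and overlap for the transporters and hexokinases.

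The entry of glucose showed no such separation. SLC2A1, the main glucose transporter of tumour cells, was at 9.40 to 9.81 on TACC3-low and 9.48 to 9.76 on TACC3-high arrays, and SLC2A3, a transporter of high affinity, at 6.07 to 6.39 and 6.09 to 6.34. HK1, the hexokinase found in most cells, was at 11.79 to 12.13 and 11.80 to 12.12. HK2, the inducible hexokinase of many tumours, was at 9.97 to 10.51 and 10.29 to 10.48, with 3 probe sets of which 1 lay wholly lower. The medians of these 4 genes differed by -0.11 to 0.01.

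GPI was at 11.09 to 11.67 (median 11.17) on TACC3-low and 11.69 to 12.00 (median 11.80) on TACC3-high arrays, a 1.54-fold lower median. This gap between the ranges was narrow, and it closed when arrays were centred on their medians. The phosphofructokinases differed among themselves. PFKP was at 9.81 to 10.02 and 10.00 to 10.53, a difference of medians of -0.49 with ranges that overlapped through 1 array, replicate 2 of the EGFP line without doxycycline. PFKL, the liver form, was at 11.36 to 11.63 and 11.42 to 11.72, and PFKM at 9.22 to 10.12 and 8.96 to 10.09. Both overlapped widely.

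The regulators of phosphofructokinase parted. PFKFB3 was at 10.31 to 10.66 (median 10.50) on TACC3-low and 9.21 to 9.97 (median 9.62) on TACC3-high arrays, a 1.84-fold higher median. It was the only 1 of the 22 glycolysis members with a range wholly above. PFKFB4, a related enzyme, was at 7.85 to 8.12 and 7.97 to 8.34, which overlapped.

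From aldolase to glyceraldehyde 3-phosphate dehydrogenase, 3 of 4 members had parted ranges. ALDOA, the main aldolase, was at 12.98 to 13.30 on TACC3-low and 13.32 to 13.57 on TACC3-high arrays, and 2 of its 3 probe sets had ranges wholly below. The parting of ALDOA was lost with the probe set of largest SD and with the mean of its probe sets. TPI1, triosephosphate isomerase, was at 12.69 to 12.95 and 12.95 to 13.21, so its ranges only just parted, in 1 of 3 probe sets, and they overlapped once arrays were centred. GAPDH, which oxidises glyceraldehyde 3-phosphate, was at 14.21 to 14.30 and 14.38 to 14.46. The difference of GAPDH was small, at -0.15, but held in 6 of its 6 probe sets. These include the degradation controls, where it was -0.14 at the 3' end and -0.27 at the 5' end. The part of the 3' excess in this was not tested. ALDOC was at 7.92 to 8.41 and 8.31 to 9.28, with a median difference of -0.60 and a slight overlap.

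From phosphoglycerate kinase to pyruvate kinase, 3 of 5 members had parted ranges. PGK1, phosphoglycerate kinase, was at 12.54 to 12.89 and 12.63 to 12.95, and none of its 6 probe sets had ranges that parted. PGAM1, phosphoglycerate mutase, was at 12.69 to 12.88 (median 12.84) on TACC3-low and 13.14 to 13.35 (median 13.24) on TACC3-high arrays. ENO1, the enolase of most tissues, was at 12.87 to 13.00 (median 12.92) and 13.26 to 13.52 (median 13.41), a 1.40-fold lower median. Both left a clear gap, while ENO2, at 6.30 to 6.67 and 6.42 to 6.75, overlapped. PKM was at 12.61 to 13.09 (median 12.68) and 13.18 to 13.66 (median 13.34), a 1.58-fold lower median, on 1 of its 2 probe sets with parted ranges.

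The lactate dehydrogenase subunits and PDK1, the kinase that holds pyruvate dehydrogenase off, all had lower ranges. LDHA was at 12.50 to 12.70 (median 12.65) on TACC3-low and 13.15 to 13.49 (median 13.21) on TACC3-high arrays, a 1.47-fold lower median, with no array between. LDHB, the subunit that favours the oxidation of lactate, was at 13.14 to 13.47 and 13.54 to 13.84, a difference of medians of -0.34. PDK1 was at 8.15 to 8.84 (median 8.40) and 8.87 to 9.38 (median 9.11), a 1.64-fold lower median and the largest difference among the lower members. PDK1's parted ranges came from 1 of its 3 probe sets, and the median was lower in all 3.

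The other hypoxia targets did not move as 1 group. NDRG1 was at 10.45 to 11.01 (median 10.70) on TACC3-low and 9.70 to 10.07 (median 9.87) on TACC3-high arrays, a 1.78-fold higher median. ADM was at 8.59 to 9.88 (median 9.55) and 7.95 to 9.40 (median 8.67), a 1.83-fold higher median with ranges that overlapped. DDIT4, an inhibitor of mTORC1, was at 11.56 to 11.83 and 11.31 to 11.57, with a difference of medians of 0.30. VEGFA lay the other way, at 9.73 to 10.22 (median 10.06) and 10.19 to 10.83 (median 10.52), a difference of medians of -0.46 with a narrow overlap. Of the 4 VEGFA probe sets 1 lay wholly lower, and the median was lower in all 4. So 3 of these genes had higher medians on the TACC3-low arrays, by 0.30 to 0.88, and VEGFA a lower one.

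The remaining 6 hypoxia targets had ranges that overlapped and medians that differed by -0.17 to 0.13. BNIP3 was at 8.03 to 8.94 and 7.82 to 9.14, and BNIP3L, its close relative, at 10.66 to 10.86 and 10.34 to 10.89. The probe sets of BNIP3L differed in sign, at 0.13 and -0.16, as did those of P4HA1, at 0.08 and -0.04. EGLN3 was at 6.96 to 7.30 and 7.12 to 7.58. CA12, a carbonic anhydrase of the cell surface, was at 7.77 to 8.17 and 7.88 to 8.16. ANKRD37, a small ankyrin repeat protein, was at 6.58 to 6.93 and 6.41 to 6.90, and P4HA1 at 9.53 to 10.01 and 9.34 to 10.04.

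Some members varied with other features of the arrays. After the values were seen, arrays were marked by a low level of ARMCX3 (4.25 to 4.93, against 9.45 to 10.31 on the others), a high level of GAS1 (8.52 to 9.47, against 5.39 to 6.51) or a low level on the brighter FGFR3 probe set (11.13 to 11.43, against 11.83 to 12.34 on the others). Each mark took 6 arrays from 5 or 6 labelled groups, 3 of them TACC3-low and 3 TACC3-high. The 6 arrays with none of these marks were all TACC3-high. The marks are no groups of the study and carry no test.

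Within each of the 3 marked sets the TACC3-low arrays lay below the TACC3-high arrays for 12 members, where 6.67% of all genes did. They were GPI, ALDOA, ALDOC, TPI1, GAPDH, PGAM1, ENO1, PKM, LDHA, LDHB, PDK1 and VEGFA. They lay above in all 3 sets for PFKFB3, NDRG1 and ADM, where 7.63% of all genes did. LDHA differed by -0.55, -0.55 and -0.86 between medians in the sets marked by ARMCX3, GAS1 and FGFR3. PKM differed by -0.51, -0.67 and -0.96, PFKFB3 by 0.64, 0.49 and 1.07, and NDRG1 by 0.69, 0.81 and 0.88. All 4 genes had their largest difference in the set marked by FGFR3. PDK1 and VEGFA had theirs in the set marked by GAS1, where PDK1 was at 8.15 to 8.32 against 8.98 to 9.38 and VEGFA at 9.73 to 9.95 against 10.39 to 10.54.

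**Figure D4:**
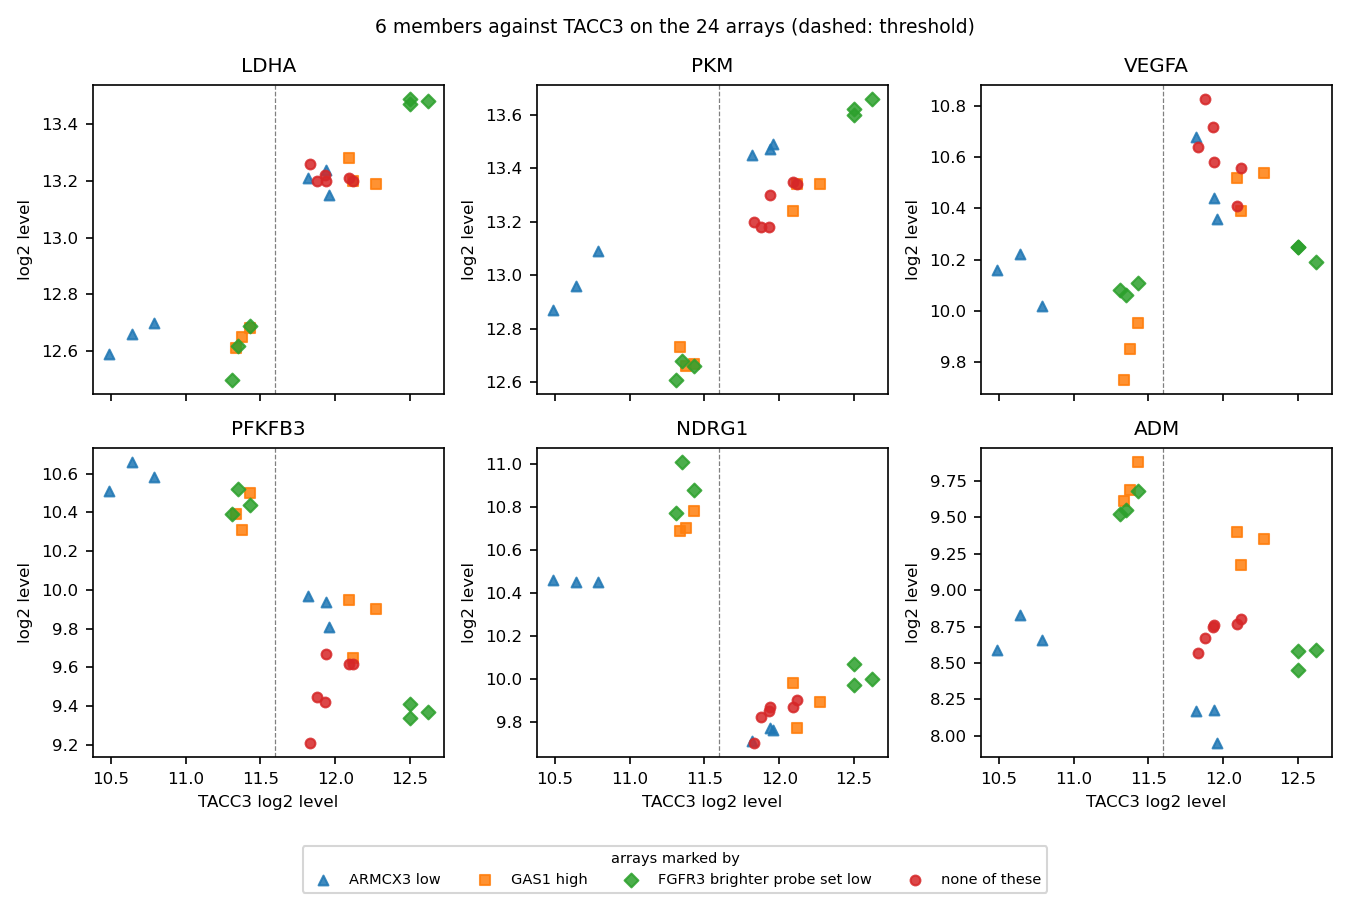
Log2 levels of LDHA, PKM, VEGFA, PFKFB3, NDRG1 and ADM (y axes) against the log2 level of TACC3 (x axis) on the 24 arrays, with symbols for the arrays marked by low ARMCX3, high GAS1, a low level on the brighter FGFR3 probe set, or none, and a dashed line at 11.6. ADM overlaps across the line over all arrays and separates within each mark.

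The ARMCX3-low arrays had levels of their own for several members. PFKM was at 8.96 to 9.32 on these 6 arrays and at 9.81 to 10.12 on the other 18. BNIP3 was at 7.82 to 8.19 and 8.45 to 9.14. HK1 was at 12.05 to 12.13 and 11.79 to 12.01. None of these ranges overlapped, and the share of all genes that part on this mark is not given here. The overlap of ADM across TACC3 also came with this mark. ADM was at 7.95 to 8.83 on ARMCX3-low arrays, at 9.17 to 9.88 on GAS1-high arrays and at 8.45 to 9.68 on those marked by FGFR3.

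The TACC3-high arrays marked by FGFR3 held the highest levels of LDHA, PKM and ALDOC, and also the highest TACC3. TACC3 was at 12.50 to 12.62 on these 3 arrays and reached 12.27 on the others, and the dimmer FGFR3 probe set was at 11.03 to 11.20 and reached 10.95. LDHA was at 13.47 to 13.49 on these 3 arrays and at 13.15 to 13.28 on the other 12 TACC3-high arrays. PKM was at 13.60 to 13.66 against 13.18 to 13.49. ALDOC was at 9.13 to 9.28 against 8.31 to 9.01. In each of these genes the 3 arrays stood above every other array, and they did so in GPI, TPI1, PGK1 and LDHB too. The share of all genes that set these 3 arrays apart is not given here.

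The control of the hypoxia-inducible factors was followed through 10 genes, all measured. None separated the TACC3-low from the TACC3-high arrays, where 3.09% of all genes lay wholly lower and 2.90% wholly higher, and limma called none by label. Within all 3 marked sets 1 lay lower and 3 higher, where 6.67% and 7.63% of all genes did. ARNT2, a partner subunit, was at 5.81 to 7.13 and 6.47 to 7.01. CITED2, which competes with the factors for their coactivator, was at 10.11 to 10.84 and 9.57 to 10.30. EPAS1, which encodes HIF-2α, was at 12.23 to 12.73 and 11.78 to 12.46. The last 2 had higher medians on the TACC3-low arrays, by 0.65 and 0.50, with ranges that overlapped. HIF1A, named after its values were seen, was at 12.00 to 12.36 and 12.21 to 12.72, a difference of medians of -0.36.

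Of 21 measured further genes of glycolysis and glucose handling, 2 lay wholly lower and 1 wholly higher on the TACC3-low arrays (3.09% and 2.90% of all genes). BPGM, which makes 2,3-bisphosphoglycerate, was the higher one, at 10.54 to 10.91 against 9.47 to 10.48. SLC2A12 was at 9.19 to 10.02 and 8.74 to 9.87, and SLC2A10 at 10.40 to 10.89 and 9.76 to 10.65. Both encode glucose transporters, and both overlapped. The 2 lower ones, ENO3 and LDHC, were named after their values were seen, and encode the muscle enolase and the testis lactate dehydrogenase.

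Of 24 further hypoxia targets, 1 lay wholly lower and 2 wholly higher on the TACC3-low arrays, near the 3.09% and 2.90% of all genes. PLOD2, a collagen lysyl hydroxylase, was at 7.97 to 9.51 and 8.53 to 9.76, AK4, a mitochondrial adenylate kinase, at 9.90 to 11.05 and 10.07 to 11.31, and IGFBP3, which binds insulin-like growth factors, at 12.96 to 13.74 and 12.40 to 13.15. These 3 had the widest ranges and all overlapped. Chosen after their values were seen, KDM3A and P4HA2 were the higher 2, with differences of 0.41 and 0.54, and ERO1A was the lower 1, at -0.39.

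Among 11 genes of pyruvate oxidation, 1 lay wholly higher and 1 wholly lower (2.90% and 3.09% of all genes), and the other 9 overlapped. PDK4, a pyruvate dehydrogenase kinase induced by fasting, was at 5.89 to 6.92 on TACC3-low and 4.59 to 5.50 on TACC3-high arrays, a difference of medians of 1.09 and opposite to that of PDK1. MPC1, a subunit of the mitochondrial pyruvate carrier, was at 9.71 to 10.60 and 10.36 to 10.73, and PDHB, a subunit of pyruvate dehydrogenase, at 10.39 to 10.83 and 10.77 to 11.11. DLAT, the acetyltransferase subunit of that complex and named after its values were seen, was the lower one, at 9.68 to 10.01 and 10.19 to 10.41.

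In the pentose phosphate pathway, which branches from glycolysis and makes NADPH and ribose, 1 of 6 genes lay wholly lower (3.09% of all genes). It was TKT, transketolase, at 11.85 to 12.07 on TACC3-low and 12.23 to 12.60 on TACC3-high arrays. PGD, which makes NADPH, was at 10.60 to 11.52 and 11.13 to 11.51, and TALDO1, transaldolase, at 11.53 to 12.06 and 11.94 to 12.26. Their medians differed by -0.51 and -0.23, with ranges that overlapped. Within all 3 marked sets 6.67% of all genes lay lower and 7.63% higher. There 2 of the 21 further glycolysis and glucose genes lay lower and 2 higher. The counts were 3 and 6 of the 24 further hypoxia targets, 2 and 2 of the 11 genes of pyruvate oxidation, and 2 and 0 of the 6 pentose phosphate genes. By label, limma called 0 genes of any of these 4 further lists or of the genes that control the hypoxia-inducible factors, in any of the 7 comparisons. At an unadjusted p under 0.05 each list had 0 to 2 genes in a comparison.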

How the data were processed

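Total RNA of 24 RT112 samples was hybridised to Affymetrix 3' expression arrays. The deposited values are log2 levels of 54675 probe sets, and RMA and the affy package are named without versions in the submitters' processing notes. RMA corrects background, quantile-normalizes arrays and summarises probes, which removes a change shared by most genes. Array medians ran from 6.98 to 7.08. The number of arrays limits the precision.

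Probe sets with 1 symbol in GEO's platform annotation (41097) were kept, and 41043 of them matched the RefSeq table of GRCh38.p14 through Entrez identifiers. The probe set with the highest mean stood for a gene, which gave 19775 genes. Members had 75 probe sets. No filter on low values was applied. limma 3.58.1 (R 4.3.3) was fitted with 1 coefficient per labelled group, with 16 residual and 3.13 prior degrees of freedom. Adjusted p-values are Benjamini-Hochberg values over all genes, with a threshold of 0.05. The fit was tested on simulated data. Alternatives were each array left out, the replicate number as a block, array weights, other choices of probe set, a filter on dim genes, centring and fewer arrays in the fit.

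The threshold on TACC3 came with the rule that chose the members, and the members and lists were chosen with earlier results of these data known. All 32 measured members are named. The 8 glycolysis members and 6 other hypoxia targets with the widest range over the arrays are given by labelled group, and up to 3 genes with the widest range from each further list are named. Other names were chosen after their values were seen. Promoter sequences are from RefSeq.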

Additional observations from a re-analysis of the deposited data

Results flagged for a closer look

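ENO2 moved in opposite directions in 2 labelled lines, with every array on the same side each time. With doxycycline it was at 6.65, 6.66 and 6.66 in the 2-4 line against 6.30, 6.57 and 6.60 without it, and at 6.35, 6.42 and 6.47 in the 6-16 line against 6.55, 6.69 and 6.71. The change in the 2-4 line minus that in the 6-16 line was 0.40 on the log2 scale. ENO2 was read by 1 probe set, and its mean of 6.57 lay below the median level of 7.93 over all genes. This difference between 2 lines was not tested on its own. The F-test over the 3 FGFR3 lines gave an unadjusted p of 0.015 and a limma adjusted p of 1.00.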

How the results depend on the processing

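By label, the count of members called was 0 in all 7 comparisons under every alternative run, except for the 6-16 line with array weights, where 2 members and 1291 genes were called. With the replicate block 1 gene and no member was called in the 6-16 line, and 1 gene in a fit to its 6 arrays alone. The correlation of deviations between arrays with the same replicate number ran from -0.53 to 0.61 over 12 pairs. All 3 pairs exceeded 0.1 in the 2-4 line (0.25 to 0.50) and in the 6-16 line (0.36 to 0.61), but 2 of 3 did in the EGFP line and 1 of 3 in the 4-1 line, so the numbers were not taken to pair arrays over the series. The mean FGFR3 line change minus the EGFP line change and the comparison without doxycycline take in all lines, so no fit with fewer lines was run for them. With 1 array left out, no member was called and 89 of 192 member changes turned sign at least once. The members with parted ranges across TACC3 numbered 12 or 13 with 1 array left out. Leaving out an array cannot make parted ranges overlap, so this count could not fall below 12 and is no check of it. Of the 19775 genes, 613 to 735 lay lower and 574 to 634 higher with 1 array left out, against 612 and 574 with all arrays. The same limit holds for these counts. The probe set of largest SD gave 9 lower and 2 higher members (without ALDOA and TPI1, with HK2), beside 651 and 587 genes. The mean of probe sets gave 9 and 2 (without ALDOA, PDK1 and PKM, with HK2 and VEGFA), beside 595 and 474 genes. Centring gave 8 and 2 (without GPI and TPI1), beside 503 and 403 genes. Within each of the 3 marked sets, an alternative chosen after seeing the data, the members numbered 15. The 12 members parted over all arrays part there by construction, so their part in this count is no check. There 6.67% of all genes lay lower and 7.63% higher. The filter on dim genes left out SLC2A3, ENO2, EGLN3 and ANKRD37, which have no value under it.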
